A study of Homo sapiens with 2 samples.

Results

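Readthrough genes, also called conjoined genes, are annotated transcription units that run from 1 gene into its downstream neighbour and join exons of both. They were taken here as the rows of the deposited gene table whose symbol has the form A-B, where A and B are each the symbol of another row. Of 28038 rows, 42 met this rule. They carry 41 symbols, since ARMCX5-GPRASP2 has 2 rows under separate identifiers. They have 83 parent rows, 42 upstream and 41 downstream. The upstream parent of SUGT1P4-STRA6LP-CCDC180 is a readthrough gene itself, SUGT1P4-STRA6LP. All 42 rows are described as readthrough in the table. The table marks 15 of them as candidates for nonsense-mediated decay (NMD), the pathway that destroys messages with a premature stop.

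RNA was sequenced from 2 cultures labelled OVCAR-3, a human ovarian carcinoma line. The OE culture overexpressed IGF2BP3, an RNA-binding protein that reads the m6A mark, and the NC culture carried an empty viral vector. Each group was 1 library, so there is no replicate error and no p-value, and the 95% intervals given below cover counting error only. The labels do not name the vector, the clone or the time after its delivery. The OE library held 48017861 counts and the NC library 43190215. IGF2BP3 had 6376 counts in OE and 2944 in NC, 133 against 67.9 CPM (counts per 1000000 counts of the library), a ratio of 1.96 (1.88 to 2.05). Of 10 markers chosen for ovarian serous carcinoma, 4 were analysed here and none reached 10 CPM, their summed level being 1.32 CPM in OE and 1.06 in NC. Of 12 epithelial markers 9 were analysed, and KRT18 alone reached 10 CPM (summed level 108 CPM in OE and 109 in NC). The 7 mesenchymal markers summed to 2231 CPM in OE and 2257 in NC, through CDH2, VIM and ZEB1. These markers do not bear out an epithelial or ovarian serous identity, so the cells are called by their label only. Fibroblast, leukocyte and endothelial markers stayed under 10 CPM in both libraries.

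A polymerase normally stops shortly after the message has been cleaved at a polyadenylation signal. Where cleavage or termination fails, it can enter the next gene on the same strand, and splicing then commonly skips the last exon of the first gene and the first exon of the second, which removes the internal cleavage site. Some of these chimeric messages encode fusion proteins and others are targets of NMD. A readthrough gene shares most of its exons with its parents, so a read inside a shared exon cannot be given to either gene by its position alone.

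The annotated structure of the set followed this scheme. GENCODE 29, an annotation of the GRCh38 build that the submitters' processing notes name, held 39 of the 42 rows. All 39 lay on the chromosome and strand of both parents, and 37 overlapped both. The exceptions were PTGER4P2-CDK2AP2P2 and TIMM23B-AGAP6, which involve duplicated sequences. GENCODE 29 gives TIMM23B-AGAP6 711 exon bases, against 4297 implied by its counts and FPKM. Whether the counted row overlaps AGAP6 is therefore not known. The median distance between the end of the upstream and the start of the downstream parent was 7339 bases, and 3 pairs of parents overlapped. A splice that joins an exon of the upstream parent directly to one of the downstream parent was annotated in 33 rows. It left from the next-to-last upstream exon in 22 rows, entered the second downstream exon in 31, and did both in 21. Each position was taken from the parent transcript that puts the join nearest. Last upstream exons and first downstream exons were left out, so these are the nearest positions possible. All 31 rows with an annotated acceptor fell on the second exon, the nearest position allowed, and the counts are no test of exon skipping. In 20 rows the bases on both sides of the join were coding in the transcript used. Some of these transcripts are of the NMD type, and whether the downstream parent's reading frame is kept was not tested.

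A join brings bases of both parents together in 1 message. Those of 7 of the 12 rows with the most counts are shown, read 5′ to 3′ from the GENCODE 29 transcripts. Bases before the join, on the side of the upstream gene, are in lower case, and bases after it are in capitals. Where a row has several transcripts, 1 that uses splice sites annotated in the parents was preferred.
RBM14-RBM4, plus strand, from chr11:66617057 to chr11:66639700, an RNA-binding coactivator joined to a splicing regulator: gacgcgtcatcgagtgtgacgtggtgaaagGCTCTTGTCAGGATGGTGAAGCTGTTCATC
CFAP298-TCP10L, minus strand, from chr21:32603161 to chr21:32582415, a cilia assembly factor joined to a testis-expressed gene: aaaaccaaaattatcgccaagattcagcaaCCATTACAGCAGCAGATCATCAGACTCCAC
TVP23C-CDRT4, minus strand, from chr17:15545785 to chr17:15440285, a Golgi membrane protein joined to a transcript of the Charcot-Marie-Tooth duplication region: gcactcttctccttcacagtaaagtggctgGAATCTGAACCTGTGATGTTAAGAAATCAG
JMJD7-PLA2G4B, plus strand, from chr15:41836551 to chr15:41840158, a JmjC hydroxylase joined to a cytosolic phospholipase A2: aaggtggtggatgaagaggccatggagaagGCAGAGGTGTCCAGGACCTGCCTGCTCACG
BCL2L2-PABPN1, plus strand, from chr14:23308199 to chr14:23322181, an anti-apoptotic BCL2 relative joined to the nuclear poly(A)-binding protein: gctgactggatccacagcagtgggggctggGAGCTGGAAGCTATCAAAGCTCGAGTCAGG
ANKHD1-EIF4EBP3, plus strand, from chr5:140542281 to chr5:140548906, an ankyrin-repeat protein joined to a translation repressor, outside coding sequence in the transcript read: ctctcctaaccagagGCACCAGGATCATCT
ZNF670-ZNF695, minus strand, from chr1:247078594 to chr1:247000074, a pair of zinc finger genes whose joined transcripts are of the NMD type: ggagactgggaaatgGGACTATTGGCATTC
The transcript read for RBM14-RBM4 is also of the NMD type, as is 1 of that row's 4 transcripts in all. Of the 7 rows shown, the donor site of ANKHD1-EIF4EBP3 is not annotated in its upstream parent. It lies past the annotated end of ANKHD1 at chr5:140539856, so the lower-case bases shown for this row are outside ANKHD1 in that release. The deposited table gives counts per gene and not per join, so a count of a readthrough row is not shown to come from reads across these joins.

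Readthrough rows had few counts in both cultures. Their counts summed to 996 in OE and 863 in NC, and 379 and 342 of these were in 1 row, ARMCX5-GPRASP2. The median row had 5.5 counts in OE and 5 in NC. Rows at or under 3 counts, which stands for 0.0627 CPM in OE and 0.0692 CPM in NC, numbered 17 in OE and 19 in NC. No count at all was listed for 7 rows in OE and 6 in NC, and no row was at 0 in both. The 7 at 0 in OE had 1 to 6 counts in NC, led by RNF103-CHMP3 with 6 and CENPS-CORT with 5. The 6 at 0 in NC had 1 to 4 counts in OE, led by ATP5MF-PTCD1 with 4 and BORCS8-MEF2B with 3. All these rows are below the minimum of counts used for ratios in what follows.

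**Figure D1:**
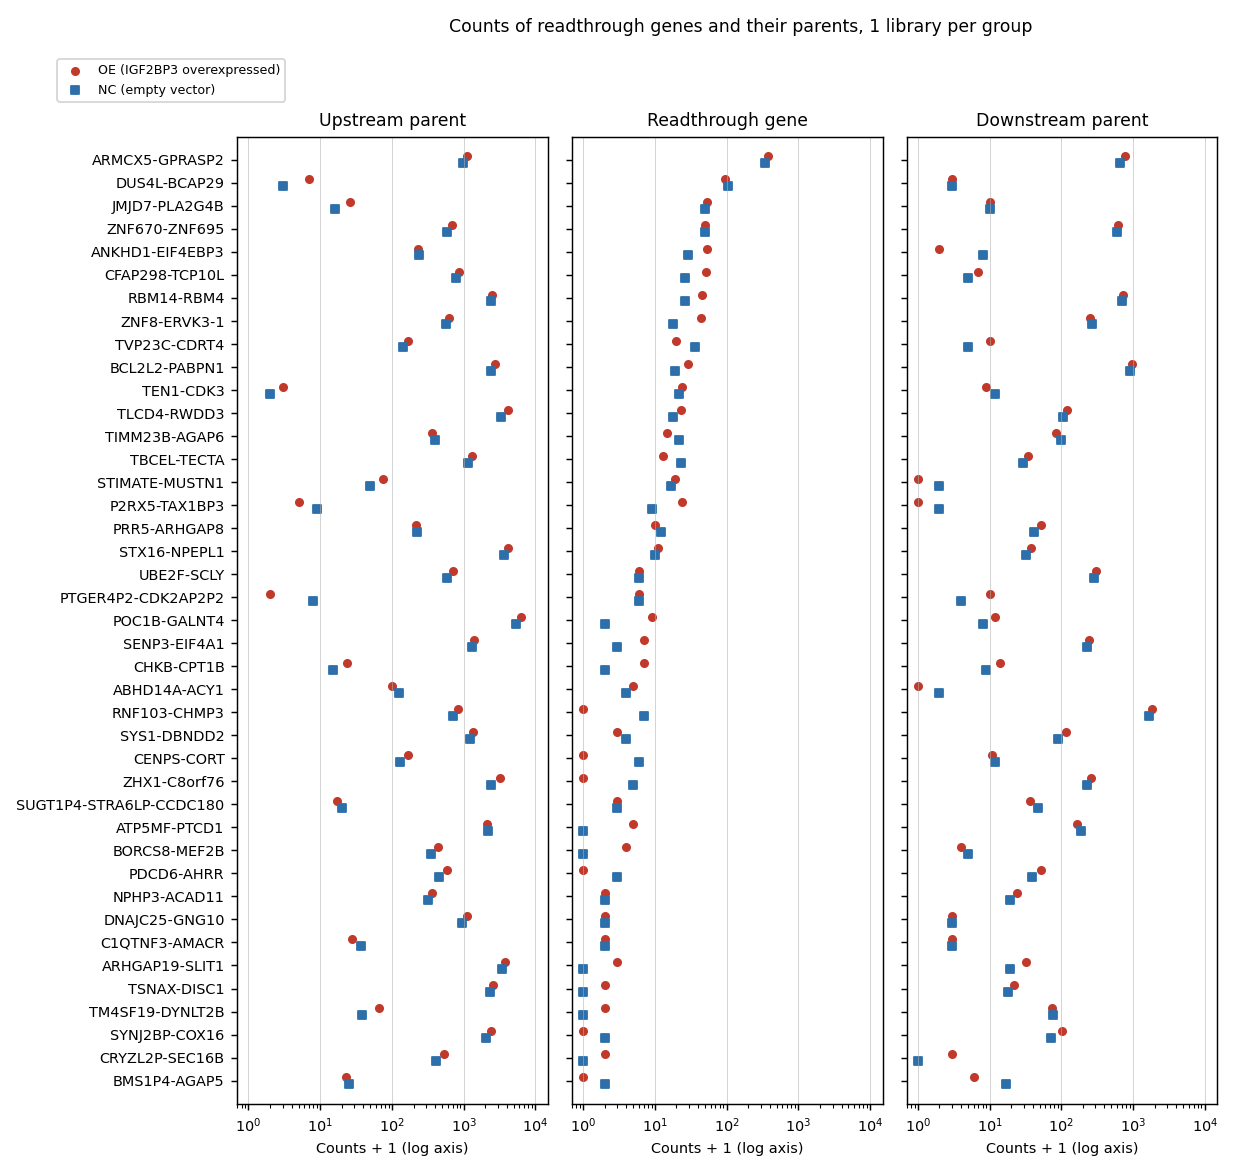
Counts plus 1 (log axis) of each readthrough gene in the middle panel, with its upstream parent on the left and its downstream parent on the right, as red circles for the OE library and blue squares for the NC library. Loci run from the most to the fewest readthrough counts, and the second ARMCX5-GPRASP2 row (0 counts in OE and 1 in NC) is added to the first. Most upstream parents sit far to the right of their readthrough gene, while 15 downstream parents are under 10 counts in OE and 15 in NC.

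Per length of exon, the upstream parents stood highest. The median level was 0.0325 FPKM (counts per kilobase of exon and per 1000000 counts) in OE and 0.0367 FPKM in NC for readthrough rows. For upstream parents it was 2.04 FPKM in OE and 1.75 in NC, and for downstream parents 0.0952 FPKM in OE and 0.121 in NC. The upstream parent had the higher FPKM of the pair in 36 of 41 loci in OE and 37 in NC. The readthrough row lay under both parents in 30 loci in OE and 31 in NC, and above both in 3 in OE and 1 in NC. The highest level of any readthrough row was 1.86 FPKM in OE and 1.87 in NC, that of ARMCX5-GPRASP2.

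The NMD candidates were low in both libraries. Their median count was 5 in OE and 2 in NC, and their summed count 144 in OE and 123 in NC. The other 27 rows had a median of 8 counts in OE and 6 in NC, and 852 in OE and 740 in NC in sum. The median level of the candidates was 0.0297 FPKM in OE and 0.0132 in NC, against 0.0333 FPKM in OE and 0.0569 in NC for the rest. The candidates' median was thus below that of the rest in both libraries, by less in OE than in NC, at medians of a few counts per row where this difference was not tested.

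The summed level of the readthrough set differed between the cultures by less than counting error. The ratio of summed CPM, scaled by the trimmed mean of M values (TMM), was 1.04 (0.953 to 1.15), OE over NC. Without the ARMCX5-GPRASP2 rows the sums were 617 counts in OE and 520 in NC, and the ratio 1.07 (0.954 to 1.21). By CPM, 20 rows were higher in OE and 22 lower. A minimum of 50 counts, summed over OE and NC, was met by 9 rows, which were given a ratio of their own. On the scale of log2(CPM + 1), used so that low rows do not dominate, 0 of the 9 were at least 1.5-fold higher or lower in OE, where 1.66% of the 14157 genes past the same minimum were. Their median log2 ratio was 0.00, equal to the 0.00 of all genes at this precision, and their range was −0.37 to 0.45. Adding 1 CPM shrinks the ratio of a row near 1 CPM, where 8 of the 9 lie. With 0.1 CPM added instead, 5 of the 9 reached 1.5-fold, where 5.28% of all genes did and 19.8% of the genes with at least 50 and under 200 counts. Those 5 are the rows whose plain ratios lie furthest from 1 in what follows.

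ARMCX5-GPRASP2 is named for an armadillo-repeat gene of the X chromosome and the gene of a sorting protein for G protein-coupled receptors. Its main row had 379 counts in OE and 342 in NC, 7.92 CPM against 7.89, a ratio of 1.00 (0.864 to 1.16). The counts of ARMCX5 were 1129 in OE and 992 in NC, and those of GPRASP2 were 762 in OE and 665 in NC. Their ratios were 1.03 (0.945 to 1.12) and 1.04 (0.934 to 1.15). The row with the most counts of the 42 thus differed by less than its counting error, as did its parents. The end of ARMCX5 and the start of GPRASP2 are 108016 bases apart, the widest gap among the 39 rows. In GENCODE 29 the main row has 9 transcripts, 3 of them tagged as readthrough. None splices an exon of ARMCX5 directly to one of GPRASP2 in that release, where 1761 of the row's 2711 exon bases are its own. The exon length that the row's counts and FPKM imply was 4244 bases. The row thus covers exons that GENCODE 29 does not hold, and their splices are not known. The counts of this row are therefore not shown to come from messages that join the 2 genes.

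The 3 rows that followed in counts also had intervals that held 1. DUS4L-BCAP29 joins a relative of the tRNA dihydrouridine synthases to a membrane protein of the endoplasmic reticulum. It had 94 counts in OE and 105 in NC, a ratio of 0.810 (0.607 to 1.08). JMJD7-PLA2G4B had 52 counts in OE and 49 in NC, a ratio of 0.961 (0.638 to 1.45). ZNF670-ZNF695, the NMD candidate with the most counts, had 49 in each library and a ratio of 0.905 (0.597 to 1.37), with ZNF670 at 677 counts in OE and 590 in NC and ZNF695 at 620 in OE and 603 in NC.

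Among the 9 rows, 3 had a counting interval wholly above 1-fold, where 22.8% of all genes did, and 1 had an interval wholly below, where 18.6% did. All 4 are among the 8 rows with under 200 counts, and among genes of 50 to under 200 counts 11.3% of genes lay wholly above and 9.39% wholly below. The intervals are not adjusted for the number of rows. Of all counts from 1 to 20 in the table, 63.3% of 10694 were even in OE and 64.1% of 10422 in NC. For this reason intervals were also computed from halved counts, and then 0 of the 9 left 1 out. Among the readthrough rows themselves 12 of 23 counts from 1 to 20 were even in OE and 8 of 25 in NC.

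ZNF8-ERVK3-1, a zinc finger gene joined to a gene derived from an endogenous retrovirus, had 43 counts in OE and 17 in NC, 0.898 CPM against 0.392. Its CPM ratio was 2.29 (1.28 to 4.28, and 0.994 to 5.80 when counts were halved). Its parents did not share this difference, since ZNF8 had 621 counts in OE and 560 in NC and ERVK3-1 had 254 in OE and 265 in NC. CFAP298-TCP10L had 50 counts in OE and 25 in NC, a ratio of 1.81 (1.10 to 3.05, and 0.884 to 3.90 with halved counts). CFAP298 had 873 in OE and 780 in NC, and TCP10L had 6 in OE and 4 in NC. The exon length that the counts and FPKM of the CFAP298-TCP10L row imply was 19326 bases, against 1026 in GENCODE 29, so the row covers exons that the release used here does not hold, and what they contain is not known. ANKHD1-EIF4EBP3 had 53 counts in OE and 28 in NC, a ratio of 1.71 (1.06 to 2.81, and 0.865 to 3.54 with halved counts). ANKHD1 had 228 in OE and 238 in NC, and EIF4EBP3, a repressor that binds the cap-binding factor eIF4E, had 1 in OE and 7 in NC.

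TVP23C-CDRT4 was the row with an interval below 1-fold. It had 19 counts in OE and 35 in NC, 0.397 CPM against 0.808, and a ratio of 0.491 (0.266 to 0.883, and 0.198 to 1.14 with halved counts). TVP23C had 168 counts in OE and 141 in NC, and CDRT4 had 9 in OE and 4 in NC. TVP23C has near-identical relatives in the genome, so its counts are uncertain. All exon bases of TVP23C-CDRT4 in GENCODE 29 are shared with other genes, so in that release no base is its own. RBM14-RBM4, with 45 counts in OE and 25 in NC, had a ratio of 1.63 (0.978 to 2.77) whose interval held 1. RBM14 had 2515 counts in OE and 2378 in NC, and RBM4 had 714 in OE and 707 in NC.

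**Figure D2:**
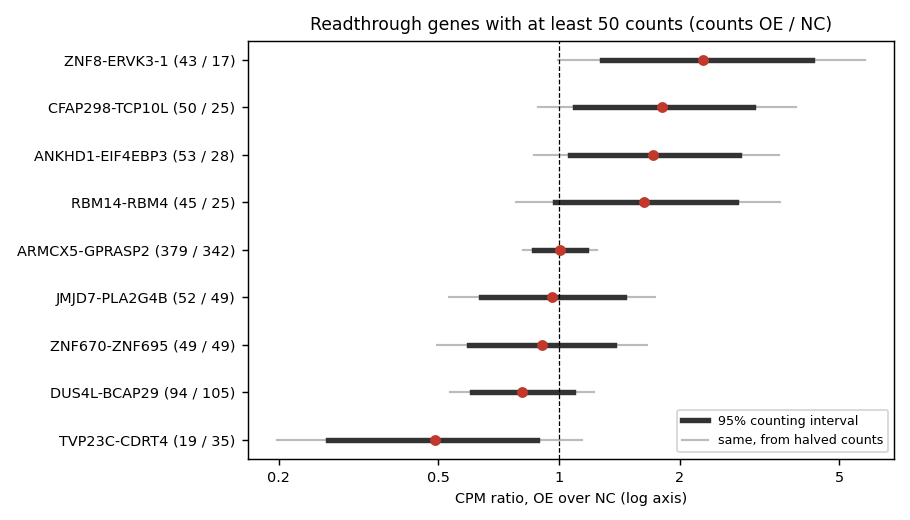
Ratio of TMM-scaled CPM, OE over NC (log axis), for the 9 readthrough genes past the minimum of 50 counts, ordered by ratio, with the counts of both libraries in the row names. Thick bars are 95% counting intervals and thin bars the same from halved counts; every thin bar crosses 1.

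Just under the minimum of 50 stood BCL2L2-PABPN1, with 28 counts in OE and 18 in NC, a ratio of 1.41 (0.752 to 2.70). TEN1-CDK3, which joins a telomere-capping subunit to a cyclin-dependent kinase, had 23 in OE and 21 in NC. TLCD4-RWDD3 had 22 in OE and 17 in NC. P2RX5-TAX1BP3, which joins an ATP-gated channel to a PDZ protein and was singled out after its values were seen, had 23 in OE and 8 in NC, a ratio of 2.60 (1.12 to 6.73). It and the 2 rows at 0 in OE with 5 and 6 counts in NC were the 3 rows below the minimum whose intervals left out 1, of 33.

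On the scale of log2(CPM + 1) no parent gene reached 1.5-fold either. Past the minimum were 53 of 83, of which 0 were at least 1.5-fold higher or lower in OE, and 0 at least 2-fold, where 0.678% of all genes were. Their median log2 ratio was 0.03, with a range of −0.33 to 0.33. Of the 33 upstream parents past the minimum, 23 were higher and 10 lower in OE (median 0.04), and of the 20 downstream parents 10 were higher and 10 lower (median −0.01). Counting intervals lay wholly above 1-fold in 7 parents (13.2%) and wholly below in 4 (7.55%), where 22.8% and 18.6% of all genes did. Such shares vary with depth, and the parents were not compared with genes of like counts. At the upper end TM4SF19, which encodes a membrane protein, had 64 counts in OE and 37 in NC, a ratio of 1.57 (1.03 to 2.41), and it was the 1 parent that reached 1.5-fold with 0.1 CPM added. ZHX1, a zinc finger and homeobox repressor, had 3198 in OE and 2386 in NC, a ratio of 1.21 (1.15 to 1.28). At the lower end ABHD14A had 99 in OE and 124 in NC, a ratio of 0.723 (0.549 to 0.949). Nearest to 1 of the 4 parents with intervals wholly below was ATP5MF, a subunit of the mitochondrial ATP synthase. It had 2133 in OE and 2159 in NC, a ratio of 0.894 (0.842 to 0.950). TM4SF19, ZHX1, ABHD14A and ATP5MF were singled out after their values were seen.

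The share of a locus's counts that its readthrough row took is compared within a library and needs no scaling between libraries. In 35 of 41 loci the 3 rows summed to at least 50 counts in each library. The median share was 0.686% in OE and 0.540% in NC. It was under 1% in 21 loci in OE and 20 in NC, and over 10% in 5 in OE and 6 in NC. The share was higher in OE in 16 loci and lower in 19, with a median difference of −0.015 percentage points, OE minus NC. At least 5 points of difference were found in 3 loci (8.57%). TVP23C-CDRT4 took 9.69% (5.94 to 14.7) in OE and 19.4% (13.9 to 26.0) in NC. ANKHD1-EIF4EBP3 took 18.8% (14.4 to 23.9) in OE and 10.3% (6.92 to 14.5) in NC. JMJD7-PLA2G4B took 60.5% (49.3 to 70.8) in OE and 67.1% (55.1 to 77.7) in NC. The intervals of JMJD7-PLA2G4B overlap widely and those of TVP23C-CDRT4 and ANKHD1-EIF4EBP3 narrowly. DUS4L-BCAP29 took 92.2% (85.1 to 96.6) in OE and 96.3% (90.9 to 99.0) in NC, the highest share in either library. In this locus DUS4L had 6 counts in OE and 2 in NC, and BCAP29 had 2 in each. DUS4L-BCAP29 is not in GENCODE 29, so the exon bases it shares with its parents could not be computed. How reads in exons shared by the rows of a locus were assigned is not given. A share is therefore one of listed counts and not the fraction of messages that read through.

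**Figure D3:**
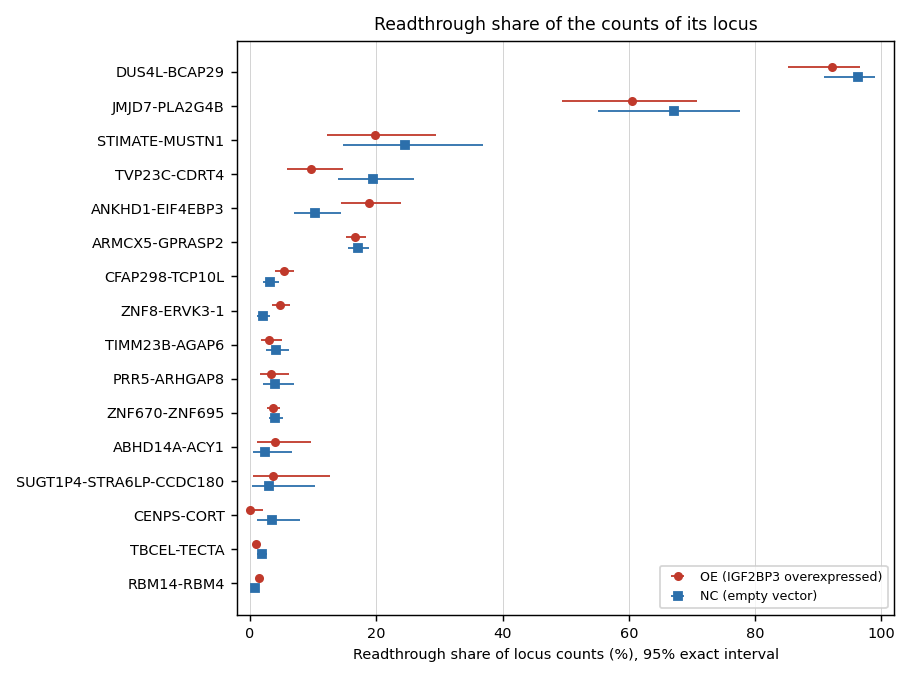
Share of the counts of a locus (readthrough row plus both parents) held by the readthrough row, in percent with 95% exact binomial intervals, as red circles for the OE library above blue squares for the NC library, in 16 loci. DUS4L-BCAP29 stands at 92.2% in OE and 96.3% in NC, and all loci below ARMCX5-GPRASP2 are under 10% in both.

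Parents that share many exon bases with their readthrough row had low levels in both libraries. The share of a parent's exon bases that also lie in exons of its readthrough gene could be computed for 79 of the 83 parents. In the 40 parents with under 25% shared, the median level was 2.93 FPKM in OE and 3.13 in NC, and 12 were under 1 FPKM in both libraries. In the 16 with 25% to 50% it was 0.797 FPKM in OE and 0.800 in NC, and 9 were under 1. In the 23 with 50% or more it was 0.0425 FPKM in OE and 0.0469 in NC, and 22 were under 1. The exception was CENPS, a subunit of the kinetochore and of the Fanconi anaemia pathway, at 1.98 FPKM in OE and 1.70 in NC. Across the 79 parents Spearman's rho between shared bases and FPKM was −0.56 in OE and −0.56 in NC. It is a description only, since the genes share a library and both roles enter it. The upstream and downstream parents each followed it at the upper end, since the 8 upstream parents with 50% or more had a median of 0.250 FPKM in OE and 0.186 in NC, and the 15 downstream ones 0.0340 in OE and 0.0386 in NC.

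**Figure D4:**
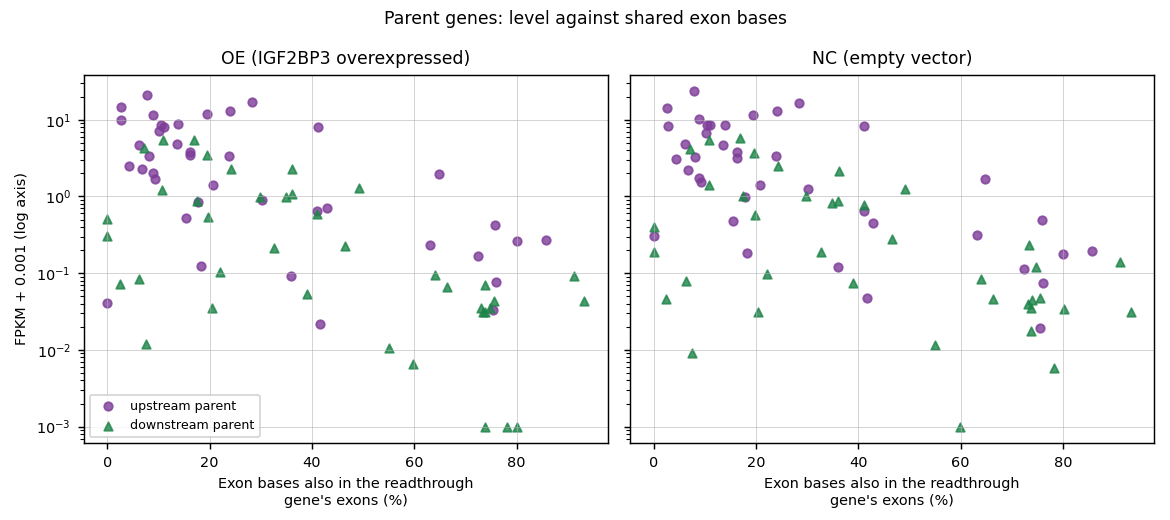
Level of each parent gene (FPKM + 0.001, log axis) against the percentage of its exon bases that also lie in exons of its readthrough gene, in the OE library (left) and the NC library (right), as circles for upstream and triangles for downstream parents. Points at 50% and above lie below 1 FPKM in both libraries except that of CENPS, at 1.98 FPKM in OE and 1.70 in NC.

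The same order held outside the readthrough loci. Among protein-coding genes that are neither readthrough rows nor parents, those with under 10% of exon bases shared with any gene had a median of 3.51 FPKM in OE and 3.46 in NC, and 33.0% of 13823 were under 1 FPKM in both. Those with 50% to 90% shared had 0.0849 FPKM in OE and 0.0935 in NC, and 83.8% of 228 were under 1. Those with 90% or more had 0.0151 FPKM in OE and 0.0143 in NC, and 97.6% of 41 were under 1. EIF4A1, the helicase of translation initiation, which dividing cells need, was singled out after its values were seen. It had 243 counts in OE and 226 in NC, 0.973 FPKM against 1.01, and 48.6% of its exon bases are shared with other genes. How the authors' counter treated reads in shared exons is not given in the sources used here, and its part in these low levels was not tested. The same limit holds for the readthrough rows, whose exon bases were shared to a median of 84.4%, leaving a median of 335 bases of their own with a range of 0 to 3141. Across 39 rows rho between a row's own bases and its counts was 0.40 in OE and 0.30 in NC, and between the gap separating the parents and the row's FPKM −0.12 in OE and 0.10 in NC.

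The signal that directs cleavage was present in most parents. The hexamer AATAAA, searched on the transcript strand, stood in the last 50 bases of 1 coding transcript per gene in 26 of 37 upstream parents (70.3%) and 25 of 40 downstream parents (62.5%). Of all 14828 protein-coding genes of the table so searched, 9242 held it (62.3%). With ATTAAA added, the shares were 81.1% of upstream parents, 72.5% of downstream parents and 76.6% of all. A match is a description of these letters and not of a site in use.

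In the lists of genes that cleave, terminate and remove such messages, 1 gene passed 1.5-fold. Of 20 measured genes for cleavage and polyadenylation, 0 were at least 1.5-fold higher or lower, 11 were above and 9 below 0, and the median log2 ratio was 0.02. Furthest from 0 were CLP1, an RNA kinase of cleavage factor II, with 964 counts in OE and 1015 in NC (log2 ratio −0.21), CSTF3 with 4807 in OE and 3778 in NC (0.20), and the poly(A) polymerase PAPOLA with 28840 in OE and 23440 in NC (0.16). Of 17 genes for termination and elongation control, 0 passed 1.5-fold, 9 were above and 8 below 0 (median 0.00). RPRD1A stood at a log2 ratio of 0.18 and the elongation kinase CDK9 at −0.15. Of 10 genes of the U1 particle and its partners, which guards transcripts against early cleavage, 0 passed 1.5-fold, 4 were above and 6 below 0 (median −0.01). LUC7L2 stood at −0.09 and LUC7L3 at 0.09.

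Of 18 NMD genes, 1 was at least 1.5-fold higher and 0 lower in OE, where 1.02% of all genes were higher and 0.643% lower. Above 0 were 6 and below 0 were 12, with a median of −0.03. EIF4A3, the helicase of the exon junction complex that marks splice joins for NMD, had 1406 counts in OE and 806 in NC, 29.4 CPM against 18.6, a ratio of 1.58 (1.45 to 1.72). SMG1, the kinase of UPF1, had 13373 in OE and 9968 in NC (log2 ratio 0.28), and UPF3A had 943 in OE and 978 in NC (−0.19). Whether these levels bear on the NMD candidates among the readthrough rows was not tested.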

How the data were processed

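Libraries were prepared from oligo(dT)-captured RNA by a dUTP method with PCR and no molecular identifiers, per the labels' protocols. The authors deposited whole-number counts and FPKM for each gene, as the file headers state. Per the submitters' processing notes GRCh38 was used, and which aligner, counter, annotation and strand option were used is not given in the sources used here. Counts were scaled with edgeR 4.0.16 TMM in R 4.3.3, with DESeq2 1.42.0 size factors as an alternative. Ratios are OE over NC. The log2 ratio uses CPM + 1 and at least 50 counts over both libraries, and a 1.5-fold call carries no p-value. Ratios and shares have exact Clopper-Pearson 95% intervals. Exon geometry, joins and hexamers came from GENCODE 29, which held 94.2% of the listed identifiers, and exon lengths were within 5% of those implied by the deposited values in 76.2% of 122 rows compared. The scripts were tested on simulated data. Named were the 12 readthrough rows with most counts, up to 8 highest and 8 lowest past the minimum with intervals off 1-fold, loci 5 points apart, the parents of these rows, parents 2-fold apart (there were 0), and 3 genes per list, of which 2 are not reported here. The members and gene lists were chosen with earlier results of these data known.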

Additional observations from a re-analysis of the deposited data

How the results depend on the processing

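The counts of readthrough and parent genes at 1.5-fold stayed at 0 under scaling by library totals or DESeq2 size factors, FPKM + 1, 5 CPM added, both other count minimums and 2-fold. With 0.1 CPM added they were 5 and 1. For all genes the count of 235 became 748 with 0.1 CPM, 100 with 5 CPM, 126 with FPKM + 1 and 96 at 2-fold. The median log2 ratio of readthrough genes lay so near 0 that its sign turned, to −0.0041 by library totals, −0.0030 with FPKM + 1, −0.0013 with a minimum of 10 (20 rows) and −0.0031 with none (42 rows). Without ARMCX5-GPRASP2, a choice made after seeing the data, it was 0.13 over 8 rows. Halved counts, also chosen after seeing the data, left 0 of the 4 rows with an interval off 1. Loci with shares at least 5 points apart were 6 with a locus minimum of 10 counts, 1 with 200 and 4 by shares of FPKM. By counts, 0 of the 35 loci past the main minimum were 10 points apart. By FPKM, TVP23C-CDRT4 took 16.3% in OE and 31.1% in NC, and ANKHD1-EIF4EBP3 took 17.5% in OE and 7.24% in NC. The cause was not tested beyond what each setting changes by construction. Of 70 recomputed log2 ratios of named genes, 62 stayed inside the counting interval of the gene's ratio and 8 left it. These intervals allow large moves. With 0.1 CPM added, the log2 ratio of ZNF8-ERVK3-1 went from 0.45 to 1.02 and stayed inside. In 2 of the 70 the sign changed, both of ARMCX5-GPRASP2. Its ratio is the median of the readthrough genes and took the same values by library totals and with FPKM + 1. No paired analysis was possible because each group is 1 library without replicate numbers. Depth limits 33 of the 42 rows, which have under 50 counts over both libraries.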

Other observations

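The table describes 41 further rows as readthrough that did not meet the naming rule, 26 of them without a symbol. Of these, 6 passed the minimum of 50 counts, 0 were at least 1.5-fold higher or lower in OE, and their median log2 ratio was 0.09. A row described as GGPS1-TBCE, which would join an isoprenoid synthase to a tubulin chaperone, had 227 counts in OE and 186 in NC, a ratio of 1.10 (0.906 to 1.35). IQCJ-SCHIP1, whose downstream parent encodes a schwannomin-interacting protein, had 222 in OE and 183 in NC, a ratio of 1.10 (0.899 to 1.34). RTEL1-TNFRSF6B, an NMD candidate that joins a telomere helicase to a decoy receptor, had 76 in OE and 68 in NC, a ratio of 1.01 (0.720 to 1.42). All 3 intervals held 1.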
